A study of Mus musculus with 16 samples.

Results

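The genes described are the subunits of the mitochondrial respiratory chain and ATP synthase. They were taken by symbol: the Ndufa, Ndufb, Ndufc, Ndufs and Ndufv families of complex I, Sdha to Sdhd of complex II, the Uqcr genes of complex III, the Cox4 to Cox8 families of complex IV, the Atp5 genes of complex V, and the protein-coding genes of mitochondrial DNA for complexes I, III, IV and V. Of the 45664 gene entries in the table, 101 matched these patterns, 4 of which carried the suffix -ps and were left out, and 91 of the other 97 had a summed count of at least 100 over the 16 libraries. These 91 members comprised 78 nuclear-encoded and 13 mitochondrial-encoded genes, and all 91 were tested. The nuclear-encoded members were 35 genes of complex I, 4 of complex II, 8 of complex III, 14 of complex IV, 15 of complex V, and Atp5s and Atp5sl, 2 genes that carry the Atp5 symbol but encode no subunit. The mitochondrial-encoded members were 7 genes of complex I, 1 of complex III, 3 of complex IV and 2 of complex V. Ndufa4, named after complex I, was counted in complex IV, where its protein sits.

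The 6 genes under the count minimum were all paralogues with restricted tissue expression: Cox7b2 and Cox8c with a summed count of 0, Cox8b with 3, Cox4i2 with 42, Ndufa4l2 with 57 and Cox7a1 with 76. Just inside it stood mt-Nd4l with 325, Cox6b2 with 403 and Cox6a2 with 536. The heart and muscle form Cox7a1 and the lung form Cox4i2 were thus nearly silent in these myeloid cells, and the common forms Cox7a2 and Cox4i1 carried the counts.

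The respiratory chain moves electrons from NADH and succinate to oxygen and uses the energy to pump protons across the inner mitochondrial membrane, and ATP synthase uses the return flow to make ATP. Complexes I, III, IV and V are built from proteins of 2 genomes: mitochondrial DNA encodes core membrane subunits, and nuclear DNA encodes all other subunits, including all of complex II. In myeloid cells the balance between respiration and glycolysis is known to shift with maturation and activation, and NRF1 and GABPA are textbook activators of nuclear respiratory chain genes.

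C57BL/6 mice, 8 to 10 weeks old, gave 4 sorted populations, each measured in 4 libraries: cornea macrophages (CD45+CD11b+CD64+F4/80+), retinal microglia and brain microglia (both CD45+CD11b+), and bone marrow monocytes (CD45+CD11b+CD115+Ly6C+). No treatment or genotype separated the groups, and all mice were of the one strain. Each cornea and each retinal sample pooled cells of 10 mice; cornea pieces were digested with Collagenase D at 37 °C, whereas retinae stayed in cold buffer. For brain microglia and monocytes the free-text description names retinal microglia, in conflict with the sample's title, source and population label, and the latter were followed. Cornea libraries 1 and 2, retinal libraries 1 and 2, and retinal libraries 3 and 4 share a title number, so they may share a source of cells. Brain and monocyte libraries 3 carry one range of numbers in their titles, and libraries 4 another, with no word on what the ranges are, and p-values measure the spread between these libraries only.

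Libraries held 8.68 to 21.76 M counts. Levels are in CPM, the count of a gene scaled to a common library size. Summed microglial markers reached 24740 to 33190 CPM in retinal and 41230 to 46660 CPM in brain microglia, against at most 2087 CPM elsewhere, and classical monocyte markers reached 17540 to 23090 CPM in the bone marrow libraries against at most 161 CPM elsewhere. Of the tissue macrophage markers, Mrc1 led in cornea (1553 CPM), although the list's sum was higher in monocytes (5652 to 8189 CPM against 3287 to 3889 CPM) through F13a1. Photoreceptor markers summed to 867 to 7883 CPM in retinal libraries. Corneal epithelial markers (234 to 1378 CPM) and stromal markers (1391 to 2587 CPM) were present in cornea libraries. Granulocyte markers (735 to 4432 CPM) and erythroid markers (372 to 2487 CPM) were present in monocyte libraries. TMM scaling factors, which correct for RNA composition, were 0.66 to 0.71 in cornea libraries and 1.07 to 1.25 in all others, so comparisons with cornea depend on the scaling. CPM used TMM-scaled library sizes, differences are log2 fold changes ± SE from edgeR's quasi-likelihood fit of all 16 libraries, and a gene was called at a Benjamini-Hochberg adjusted p under 0.05 over 15754 tested genes.

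Nuclear-encoded members, with Atp5s and Atp5sl counted in, were mostly lower in the 3 tissue-resident populations than in bone marrow monocytes. In brain microglia, 58 of 78 were lower and 2 higher, where 27.4% of all tested genes were lower and 28.5% higher. In retinal microglia, 54 were lower and 2 higher, against 27.1% and 32.2% of tested genes. In cornea macrophages, 45 were lower and 1 higher, against 31.1% and 32.2% of tested genes. The median differences of the nuclear-encoded members were -0.88, -0.72 and -0.75, with medians over all tested genes of 0.04, 0.12 and 0. The 3 comparisons share the monocyte libraries. Of the 78 members, 61 (78.2%) had their highest group mean in monocytes, which held for 27.2% of all tested genes. In these bulk libraries, a lower level from fewer expressing cells and one from less RNA per cell cannot be told apart.

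Among the mitochondrial-encoded subunits, the counts differed by complex. In brain microglia against monocytes, 4 of 13 were lower (mt-Co1, mt-Co2, mt-Co3 and mt-Atp6) and 1 was higher (mt-Nd2). In retinal microglia, 3 were lower (mt-Co2, mt-Co3 and mt-Atp6) and 0 higher. Of all tested genes, 27.4% were lower and 28.5% higher in brain, and 27.1% and 32.2% in retina. The lower counts in both were thus near the shares of all tested genes. In cornea macrophages, 3 were higher (mt-Nd2, mt-Atp6 and mt-Atp8) and 0 lower, which is 23.1% of the 13 against 32.2% of tested genes higher. Their median differences were -0.08, -0.31 and 0.29. In complex IV both sets were mostly lower in microglia: all 3 mitochondrial-encoded subunits in brain (median -0.84) and 2 of 3 in retina (-0.72), beside 13 and 11 of 14 nuclear-encoded ones (-1.15 and -0.97). In complex I, 0 of 7 mitochondrial-encoded subunits were lower in either. The difference between the 2 sets of genes was not tested.

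**Figure D1:**
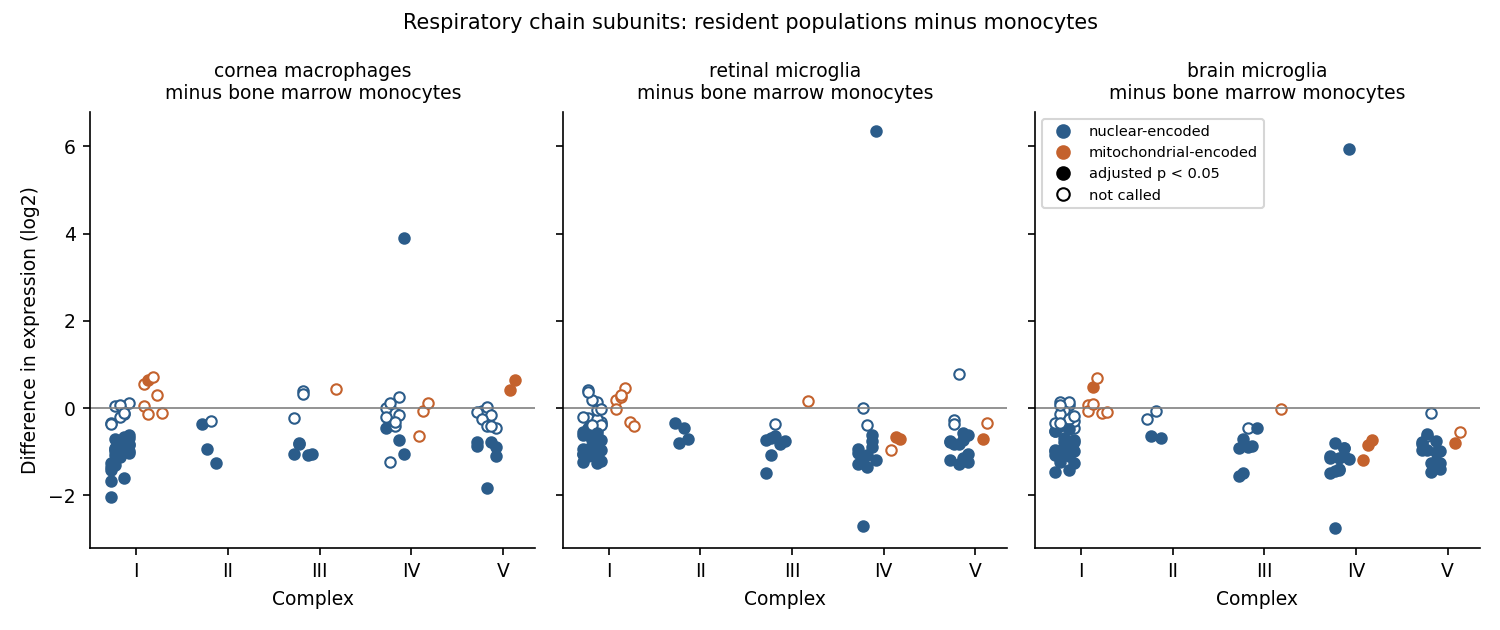
Log2 difference of each subunit from bone marrow monocytes (vertical axis), by complex (horizontal axis), in cornea macrophages, retinal microglia and brain microglia. Each point is 1 gene, blue if nuclear-encoded and orange if mitochondrial-encoded, filled if called. Most filled blue points lie below 0 in all 3 panels, and the filled blue point above 0 in each is Cox6a2. Atp5s and Atp5sl, which are no subunits, are not drawn.

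Complex I takes electrons from NADH. Of its 35 nuclear-encoded members, 27 were lower in cornea macrophages, 20 in retinal microglia and 23 in brain microglia than in monocytes, and none was higher. Of all tested genes, 31.1%, 27.1% and 27.4% were lower, and 32.2%, 32.2% and 28.5% higher. Ndufa6, an accessory subunit of the matrix arm, had 142, 127, 102 and 91.5 CPM in monocytes and 44.3, 50.8, 39.2 and 40 CPM in brain microglia, a difference of -1.41 ± 0.20 with no overlap. Ndufb3, an accessory subunit of the membrane arm, had 39.7, 36.5, 31.7 and 25.3 CPM in monocytes and 10.5, 9.97, 8.00 and 13.2 CPM in cornea macrophages, and fell by 1.67 on the log2 scale. Ndufa1, a small membrane-arm subunit, was lower in brain microglia by -1.47 ± 0.18 but differed from monocytes by only -0.34 in cornea, which was not called.

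Complex II oxidises succinate and has no mitochondrial-encoded subunit. All 4 members were lower in retinal microglia than in monocytes, 3 in cornea macrophages and 2 in brain microglia. The shares of all tested genes were 27.1%, 31.1% and 27.4%. The membrane anchor Sdhd fell furthest in cornea: monocytes had 152, 137, 135 and 169 CPM and cornea macrophages 63.7, 69.3, 56.8 and 58.1 CPM, with no overlap, a difference of -1.26 ± 0.14. The iron-sulfur subunit Sdhb differed by -0.93 in cornea, -0.80 in retina and -0.64 in brain, each called. The flavoprotein Sdha, which holds the succinate site, moved less, by -0.35 in cornea and -0.34 in retina (both called), and by -0.24 in brain (not called). Without monocyte library 4 its differences were -0.29 and -0.27, with no call (adjusted p = 0.0584 and 0.0796, edgeR), and calls were also lost without cornea library 3 or any 1 of retinal libraries 2 to 4. The other anchor Sdhc was called only in retina (-0.46), where its libraries overlapped those of monocytes, and the call was lost without monocyte library 1 or 2 (adjusted p = 0.0838 and 0.0862, edgeR) or retinal library 1 (0.0744).

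Complex III passes electrons to cytochrome c. Of 8 nuclear-encoded members, 5 were lower in cornea, 7 in retina and 7 in brain, and none was higher. The shares of all tested genes lower were 31.1%, 27.1% and 27.4%, and 32.2%, 32.2% and 28.5% were higher. The catalytic Rieske iron-sulfur protein Uqcrfs1 had 235, 214, 213 and 240 CPM in monocytes, 72.7, 80.8, 89.3 and 79.7 CPM in retinal microglia, 67.3, 73.1, 91.6 and 74.9 CPM in brain microglia and 112, 126, 91.8 and 104 CPM in cornea macrophages. The monocyte libraries lay above the 12 others without overlap. The differences were -1.48 ± 0.13 in retina, -1.56 ± 0.13 in brain and -1.06 ± 0.13 in cornea (adjusted p = 3.14e-08, 1.52e-08 and 1.32e-06, edgeR). The hinge protein Uqcrh, which binds cytochrome c1, differed by -1.06 in retina and -1.49 in brain.

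Complex IV reduces oxygen. Of its 14 nuclear-encoded members, 13 were lower in brain microglia and 11 in retinal microglia than in monocytes, but only 3 in cornea macrophages (Cox4i1, Cox7a2l and Ndufa4). The shares of all tested genes were 27.4%, 27.1% and 31.1%, so the cornea count was below its share. Cox4i1, the largest nuclear-encoded subunit, stood at 448, 422, 340 and 324 CPM in monocytes, 166, 148, 173 and 147 CPM in retinal microglia, 140, 110, 157 and 137 CPM in brain microglia and 263, 299, 253 and 310 CPM in cornea macrophages. Cornea levels lay between monocytes and microglia with no overlap on either side. The differences from monocytes were -1.49 ± 0.14 in brain, -1.28 ± 0.14 in retina and -0.45 ± 0.14 in cornea. Cox6c fell by 1.35 in retina and 1.42 in brain on the log2 scale and by a non-significant 0.41 in cornea. Cox7a2l, which joins complexes III and IV into supercomplexes, was lower by a similar amount in each: -1.05 in cornea, -1.19 in retina and -1.17 in brain.

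Complex V makes ATP. Of 15 nuclear-encoded members, 12 were lower in retina, 13 in brain and 6 in cornea. The shares of all tested genes were 27.1%, 27.4% and 31.1%, so the cornea count was near its share. All 5 subunits of its catalytic F1 head (Atp5a1, Atp5b, Atp5c1, Atp5d and Atp5e) were lower in both microglial populations, and 3 of 5 in cornea. The central stalk subunit Atp5c1 had 361, 300, 338 and 416 CPM in monocytes, 134, 134, 189 and 128 CPM in retinal microglia, 127, 136, 137 and 116 CPM in brain microglia and 102, 98.3, 102 and 94.1 CPM in cornea macrophages. It had the smallest adjusted p of any nuclear-encoded member in cornea (4.25e-09, edgeR), with a difference of -1.84 ± 0.14. The catalytic beta subunit Atp5b contrasted with it: 529, 474, 478 and 554 CPM in monocytes and 522, 540, 483 and 408 CPM in cornea, overlapping, with a difference of -0.06. The 3 genes that encode the same c-ring protein, Atp5g1, Atp5g2 and Atp5g3, included 1 lower gene in each microglial population (Atp5g3, -0.56 and -0.76) and none in cornea.

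Monocyte libraries differed among themselves in a way that touches these counts. In 59 of 78 nuclear-encoded members, libraries 1 and 2 both lay above libraries 3 and 4, against 22.7% of all tested genes. Granulocyte markers summed to 4432 and 2067 CPM in libraries 1 and 2 and to 750 and 735 CPM in libraries 3 and 4, and erythroid markers to 2487, 1627, 473 and 372 CPM. All 10 granulocyte and all 6 erythroid markers were detected in monocytes, and their part in the result was not tested. Without libraries 1 and 2, the nuclear-encoded members called lower numbered 40 in brain, 37 in retina and 35 in cornea, where 20.7%, 20.2% and 24.0% of tested genes were lower, and the median differences were -0.56, -0.46 and -0.48. Among named nuclear-encoded members, the calls of Cox4i1 in cornea (-0.25) and of Cox6a1, Cox7a2, Cox7b, Ndufa4, Atp5g3 and Sdhc in retina were then lost. Those of Cox6a1 and Cox6b2 in brain were lost as well. Lanes of the sequencer are unevenly spread over the populations, with all brain libraries and 3 monocyte libraries in lane 3. Within lane 3, 55 nuclear-encoded members were lower in brain microglia and 2 higher. All retinal libraries and cornea libraries 1 to 3 ran in lane 2, with only monocyte library 1. Lane and population are thus hard to tell apart there. With lane as a term, the median differences were -0.84 in brain, -0.76 in retina and -0.76 in cornea.

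Short sequences upstream of the nuclear genes are described beside those of all promoters. Such shares do not depend on levels in these populations, and lower and unchanged members were not compared. RefSeq promoters (250 bases before to 50 after the start, build GRCm38.p6) were found for 66 of the 78. A gene was counted if any of its promoters held the letters. The NRF1 core GCGCATGC, read on both strands, was present in 10 of 66 (15.2%) and in 3.05% of 27025 genes with a promoter. The GABPA core ACTTCCGG was present in 5 (7.6%, against 4.31%) and CCAAT, bound by NFY, in 29 (43.9%, against 41.06%). None of the 3 letter strings holds another. A match describes these letters only. Of the members with the NRF1 letters, Ndufa6, Atp5k and Atp5l were chosen as the lowest in brain microglia against monocytes (-1.41, -1.26 and -1.20). Their promoters are shown with these letters in capitals, which begin 83, 50 and 240 bases before the start. They lie at chr15:82354242-82354541, chr5:108434350-108434649 and chr9:44920693-44920992, all on the minus strand.
Ndufa6: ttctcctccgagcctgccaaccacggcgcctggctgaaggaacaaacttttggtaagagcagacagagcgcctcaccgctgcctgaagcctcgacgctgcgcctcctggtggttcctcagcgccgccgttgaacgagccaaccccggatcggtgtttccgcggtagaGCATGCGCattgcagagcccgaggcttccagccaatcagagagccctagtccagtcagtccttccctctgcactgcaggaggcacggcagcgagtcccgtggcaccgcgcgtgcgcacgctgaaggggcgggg
Atp5k: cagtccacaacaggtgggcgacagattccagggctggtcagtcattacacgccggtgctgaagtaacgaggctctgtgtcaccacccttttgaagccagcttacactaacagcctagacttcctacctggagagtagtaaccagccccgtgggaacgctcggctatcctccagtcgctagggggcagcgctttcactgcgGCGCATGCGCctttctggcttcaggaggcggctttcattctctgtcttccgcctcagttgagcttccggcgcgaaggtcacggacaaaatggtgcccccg
Atp5l: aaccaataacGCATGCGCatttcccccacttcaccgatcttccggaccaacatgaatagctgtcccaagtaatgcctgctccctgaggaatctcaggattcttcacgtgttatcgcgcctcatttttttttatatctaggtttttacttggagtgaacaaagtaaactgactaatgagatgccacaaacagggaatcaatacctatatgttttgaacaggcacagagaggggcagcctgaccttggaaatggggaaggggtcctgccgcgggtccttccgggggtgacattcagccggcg

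Between cornea macrophages and microglia, nuclear-encoded members moved in both directions. Against retinal microglia, 17 of 78 nuclear-encoded members were higher and 17 lower, where 30.9% and 35.1% of tested genes were. Against brain microglia, 24 were higher and 16 lower, where 33.8% and 33.1% were. The medians over the nuclear-encoded members were -0.02 and 0.12, with -0.12 and -0.00 over all tested genes. Complex IV had 7 of 14 higher (50%) and 1 lower against retina, and 10 higher (71.4%) and 1 lower against brain. Complex I had 11 of 35 lower (31.4%) and 2 higher (5.71%) against retina, and 10 lower (28.6%) and 3 higher (8.57%) against brain, with 22 not called in each. Its lower shares were thus near those of all tested genes, and its higher shares were below them. Complex III had 3 of 8 higher and 1 lower against retina and 5 and 1 against brain, complex V had 5 of 15 and 1, and 6 and 1, and complex II had 1 of 4 lower in each. The 2 comparisons share the cornea libraries.

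These splits depend on the scaling between libraries. On total counts without TMM, the nuclear-encoded members split into 1 higher and 53 lower against retina and 6 higher and 44 lower against brain, while the median of all tested genes moved from -0.12 to -0.92 and from -0.00 to -0.67. Scaling drops out when complexes are compared within a library. Mean CPM per kilobase over the nuclear-encoded members of complex IV, divided by that of complex I, was 3.06, 3.22, 3.00 and 2.89 in cornea libraries, 1.82, 1.64, 1.47 and 1.59 in retinal, 1.44, 1.40, 1.48 and 1.40 in brain, and 2.04, 2.07, 1.93 and 1.71 in monocyte libraries. Cornea libraries lay above all 12 others without overlap. The means were 3.04 ± 0.14, 1.63 ± 0.15, 1.43 ± 0.04 and 1.94 ± 0.17 (SD, n = 4). Complex III over complex I was 1.76 ± 0.09 in cornea, 1.29 ± 0.15 in retina, 1.25 ± 0.04 in brain and 1.51 ± 0.13 in monocytes, and complex V over complex I was 1.35 ± 0.10, 0.97 ± 0.09, 0.93 ± 0.03 and 1.18 ± 0.14. For complexes III and V, cornea libraries lay above all microglial libraries but overlapped monocytes. Their lowest cornea values were 1.67 and 1.206, and the highest monocyte values 1.681 and 1.365. Complex II over complex I showed no such order, with 1.66 ± 0.10, 1.69 ± 0.22, 1.83 ± 0.08 and 1.58 ± 0.34.

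**Figure D2:**
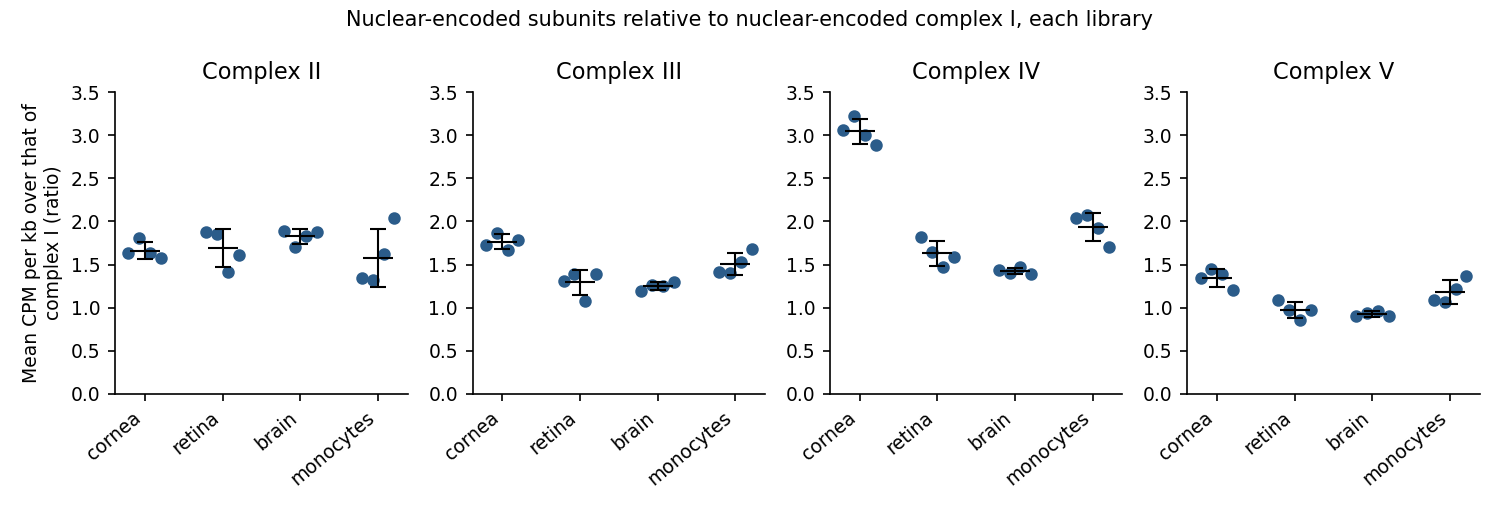
Mean CPM per kilobase of the nuclear-encoded subunits of complexes II, III, IV and V divided by that of complex I (vertical axis, ratio), for the 4 libraries of each population. Points are libraries, and bars give the mean and SD. In the complex IV panel, the cornea points lie between 2.89 and 3.22, above the 12 other libraries.

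In complex IV, the subunits higher in cornea were the common structural ones. Cox5a, a subunit on the matrix side, had 66.0, 54.1, 55.2 and 54.5 CPM in cornea macrophages, 22.2, 24.0, 32.0 and 24.3 CPM in retinal microglia and 18.5, 23.5, 21.0 and 21.1 CPM in brain microglia. The groups did not overlap, with differences of 1.16 ± 0.15 from retina and 1.45 ± 0.15 from brain (adjusted p = 3.67e-06 and 2.99e-07, edgeR). Monocytes had 67.9, 58.5, 53.4 and 48.6 CPM, which overlapped cornea. Cox6b1, on the intermembrane side, differed by 1.03 and 1.10, Cox7a2 by 1.02 and 1.17, Cox6c by 0.94 and 1.01, Cox4i1 by 0.83 and 1.05, Cox8a by 0.77 and 1.08, and Cox7b by 0.73 and 0.94, each called against retina and brain. Without cornea libraries 3 and 4, Cox7b differed from retina by 0.54 (adjusted p = 0.1, edgeR). On total counts, Cox7b and Cox8a turned to -0.06 and -0.02 against retina.

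In complex I, the subunits lower in cornea included members of the part that passes electrons to quinone. Of the 8 nuclear-encoded members of the quinone-reducing module, 5 were lower against each microglial population and 0 (retina) or 1 (brain) higher. Of the 8 in the NADH-oxidising module, 2 were lower against each. Among all tested genes, 35.1% were lower and 30.9% higher against retina, and 33.1% and 33.8% against brain. The lower share of the NADH-oxidising module was thus below that of all tested genes. Ndufs3, a core subunit of the quinone module, had 3.97, 4.01, 5.15 and 4.85 CPM in cornea macrophages, 14.4, 12.6, 17.8 and 12.8 CPM in retinal microglia, 12.6, 10.1, 12.7 and 11.5 CPM in brain microglia, and 10.7, 12.3, 11.0 and 10.9 CPM in monocytes. Cornea libraries lay below the 12 others, by -1.67 ± 0.20 from retina, -1.38 ± 0.20 from brain and -1.31 ± 0.20 from monocytes. Ndufs7, which holds the last iron-sulfur cluster before quinone, had 26.3, 24.9, 23.4 and 17.8 CPM in cornea against 43.5 to 56.3 CPM in brain microglia, and differed by -1.23 from retina, -1.08 from brain and -1.42 from monocytes. Ndufa9, an accessory subunit beside the quinone site, differed by -0.75 and -1.12 from retina and brain. The small subunit Ndufa1 was higher in cornea, by 0.88 and 1.12, with 43.1, 39.0, 39.0 and 46.8 CPM in cornea and 17.3 to 22.1 CPM in brain microglia.

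In complex III, Uqcrq, a small membrane subunit, was higher in cornea: 56.2, 59.7, 58.7 and 92.8 CPM in cornea against 25.6, 36.6, 41.2 and 33.8 CPM in retina, 0.96 higher on the log2 scale, and 1.22 higher than brain. In complex V, Atp5b was higher by 0.76 and 0.90 while Atp5c1, which turns inside the same head, was lower by -0.56 and -0.38.

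**Figure D3:**
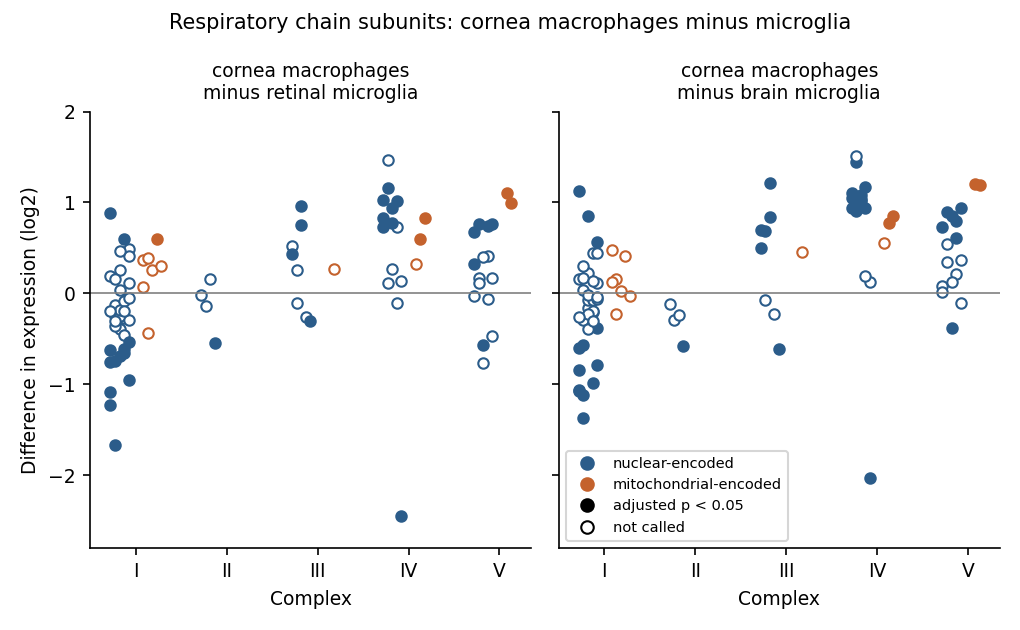
Log2 difference of each subunit between cornea macrophages and retinal (left) or brain microglia (right), by complex. Points are genes, blue if nuclear-encoded and orange if mitochondrial-encoded, filled if called. In complex I most filled points lie below 0, and in complex IV most lie above 0, with Cox6a2 lowest.

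Genes that help to build the complexes were lower in cornea more often than higher. Of 14 assembly factors of complex I, 12 (85.7%) were lower against retina and 12 against brain, where 35.1% and 33.1% of tested genes were, and none was higher. The largest changes were those of Ndufaf7, a methyltransferase, at -2.86 and -2.98. Against monocytes, 7 (50%) were lower and 1 higher in cornea, where 31.1% of tested genes were lower. In retinal microglia 4 were higher and in brain microglia 3, shares of 28.6% and 21.4% against 32.2% and 28.5% of tested genes, and 0 were lower against 27.1% and 27.4%. Of 30 tested assembly factors of complexes II to V, 19 (63.3%) were lower and 3 (retina) or 4 (brain) higher in cornea. Of 76 mitochondrial ribosomal proteins, 40 were lower (52.6%) and 10 higher against retina, and 37 (48.7%) and 11 against brain. Of 16 genes of the tricarboxylic acid cycle, 12, 10 and 9 were lower (75%, 62.5% and 56.2%) and 1 each was higher in cornea, retina and brain than in monocytes, where 31.1%, 27.1% and 27.4% of tested genes were lower. Cytochrome c (Cycs), which carries electrons from complex III to complex IV, was higher in cornea by 1.70 and 1.58 than in retina and brain, and lower than monocytes by -1.47 in retina and -1.36 in brain.

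Retinal and brain microglia were close in these genes. Cox7c, a small complex IV subunit, was the 1 member called of 91, where 6.95% of tested genes were higher and 3.60% lower in retina. It had 11.5, 10.4, 12.6 and 9.86 CPM in retina and 7.46, 6.61, 4.76 and 6.82 CPM in brain, without overlap, a difference of 0.79 ± 0.24 (adjusted p = 0.0442, edgeR). Retina and brain libraries ran in separate lanes. With lane as a term the difference was 0.37 with an adjusted p of 0.656. Leaving out any 1 of the 8 libraries ended the call, with adjusted p of 0.0597 to 0.136 (edgeR) and differences of 0.66 to 0.87. Of the 13 mitochondrial-encoded genes, 0 were called by edgeR and 0 by DESeq2, and 0 had an unadjusted p under 0.05. In 62 of 78 nuclear-encoded members the highest of the retinal values was that of library 3, against 32.1% of tested genes, and that library had the lowest sum of photoreceptor markers (867 CPM), whose part was not tested.

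Members with restricted expression had patterns of their own. Cox6a2, the heart and muscle form of subunit VIa, had 5.36, 4.05, 6.14 and 2.90 CPM in retinal microglia, 2.83, 2.74, 5.75 and 2.54 CPM in brain microglia, 0.227, 0.937, 1.00 and 1.13 CPM in cornea macrophages, and 0.136, 0, 0 and 0 CPM in monocytes. It was the 1 nuclear-encoded member called higher in cornea than in monocytes, and 1 of 2 in each microglial population, beside Atp5s. Monocytes held 3 counts in all, so the ratios of pooled CPM are 83.9 in retina (exact 95% counting interval 28.5 to 409), 64.3 in brain (21.6 to 315) and 16.9 in cornea (5.40 to 85.0). These intervals hold counting noise only and leave out the spread between libraries, so they are too narrow for a difference between populations. All 3 counts stood in monocyte library 1, and without it monocytes were at 0. Of its exonic bases, 10.3% overlap Itgad on the other strand, and Itgad held 0 to 26 counts per library where Cox6a2 held up to 114. Its common paralogue Cox6a1 was lower than monocytes by -0.89 in retina and -1.10 in brain, and without monocyte libraries 1 and 2 by an uncalled -0.06 and -0.27 (adjusted p = 0.913 and 0.553, edgeR). Each call was also lost without monocyte library 2, and that in retina without monocyte library 1 or retinal library 2 or 4. The testis form Cox6b2 was at most 1.22 CPM in microglia and 2.13 to 6.05 CPM in monocytes, so that it was lower in both, as most members were. Its call in brain was lost without monocyte libraries 1 and 2 (-2.32, adjusted p = 0.0537, edgeR). Atp5sl, which despite its name acts in complex I assembly, had 2.04, 1.19, 3.85 and 0.266 CPM in cornea against 11.3 to 21.7 CPM in retina, and differed by -3.14, -2.78 and -3.16 from retina, brain and monocytes (-3.88, -3.53 and -3.89 without cornea library 3). Atp5s was higher in retinal (2.41) and brain microglia (2.59) than in monocytes.

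Reads of mitochondrial-encoded genes cannot always be placed. The nuclear genome carries copies of stretches of mitochondrial DNA, and on chromosome 1 (build GRCm38, GENCODE vM21) 7 such annotated copies lie between positions 24611535 and 24616197 on the minus strand. Of all 50-base windows, 100% of mt-Co2, 99.9% of mt-Co3, 99.5% of mt-Atp6, 98.8% of mt-Nd4l and 98.0% of mt-Nd3 recur in another annotated gene, as do 62.2% of mt-Nd4 and 51.1% of mt-Co1. For mt-Nd2 and mt-Nd5 the share was 8.2% and 7.6%, and for mt-Nd1, mt-Nd6, mt-Cytb and mt-Atp8 it was 0%. Only annotated genes were searched. On mitochondrial DNA, mt-Atp8 lies between mt-Co2 and mt-Atp6. The chromosome 1 copies of these 2 keep that order, with a gap between positions 24614651 and 24614885 that holds no annotated copy. A copy of mt-Atp8 there would be missed, so its 0% does not exclude one. No nuclear-encoded member of 76 with a value reached 50% (median 2.5%, highest 38.3% in Atp5g2). The pairs shown, with positions chrM:6381-6440 against chr1:24616138-24616197 and chrM:7323-7382 against chr1:24615196-24615255, contrast a stretch with mismatches, in capitals, and one without.
mt-Co1: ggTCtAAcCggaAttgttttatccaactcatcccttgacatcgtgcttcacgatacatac
Gm29216: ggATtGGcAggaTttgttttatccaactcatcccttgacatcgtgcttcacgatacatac
mt-Co2: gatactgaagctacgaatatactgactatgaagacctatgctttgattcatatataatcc
Gm28661: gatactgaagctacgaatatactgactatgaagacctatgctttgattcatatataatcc

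The table split its counts between gene and copy. Over its aligned 681 bases Gm28661 had 0 mismatches to mt-Co2, and 74.6% of the pair's counts in the table stood on the copy. The share on the copy was 79.5% for mt-Nd3, 65.8% for mt-Atp6, 65.4% for mt-Nd4l and 48.3% for mt-Co3, and 3.31% and 2.32% for mt-Nd4 and mt-Co1, whose copies cover only part of the gene. Levels of these genes are therefore uncertain; where the reads on the copies came from was not tested. With copy counts added, the mitochondrial-encoded members called were 6 in cornea against retina, 4 against brain and 4 against monocytes, 3 in retina and 6 in brain against monocytes, compared with 5, 4, 3, 3 and 5 as deposited.

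**Figure D4:**
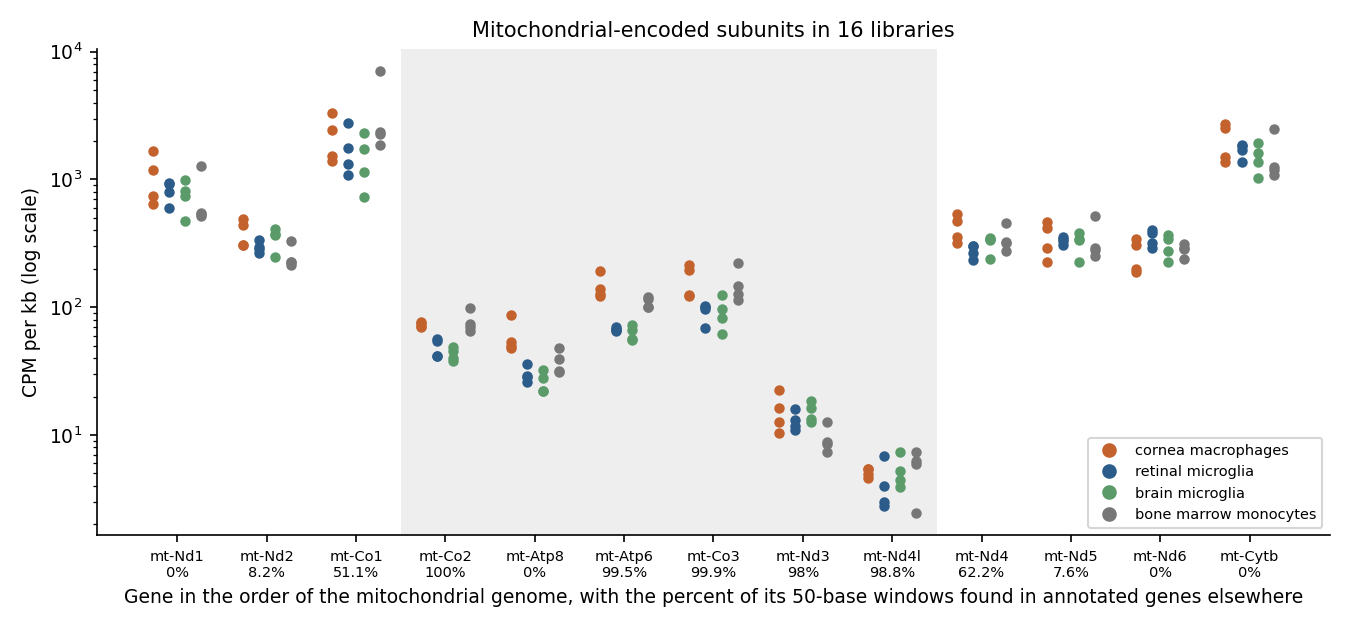
CPM per kilobase (vertical log axis) of the 13 mitochondrial-encoded subunits in order along mitochondrial DNA, with the percent of 50-base windows that recur in annotated genes elsewhere under each name. Points are the 16 libraries, coloured by population, and the grey band spans mt-Co2 to mt-Nd4l. Genes in the band stand below mt-Co1 in all 16 libraries, and 1 monocyte library stands above the rest in mt-Co1.

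Levels per length differed widely within mitochondrial DNA. Averaged over the populations, mt-Co1 stood at 2190 CPM per kilobase, mt-Cytb at 1678 and mt-Nd1 at 838, but mt-Co2 at 60.4 and mt-Nd4l at 5.00. Among nuclear-encoded members the highest were Cox4i1 in complex IV (154.7 CPM per kilobase), Atp5a1 in complex V (117.4), Ndufa6 in complex I (114.8), Uqcrfs1 in complex III (90.2) and Sdhd in complex II (76.4). Length is the summed exon length in the table, so genes with long alternative exons are placed low.

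Cornea macrophages had the highest mean of the 4 populations in 9 of 13 mitochondrial-encoded genes (69.2%), which held for 31.0% of all tested genes. Against retina 5 were higher (mt-Nd4, mt-Co2, mt-Co3, mt-Atp6 and mt-Atp8), against brain 4 (these except mt-Nd4), and none was lower. These are 38.5% and 30.8% of the 13, close to the 30.9% and 33.8% of tested genes that were higher. Without cornea libraries 3 and 4, 3 were higher and 1 lower in each comparison, and the median difference of the 13 went from 0.37 to 0.05 against retina and from 0.45 to -0.09 against brain. The differences of mt-Co3 and mt-Nd4 from retina then were 0.40 and 0.27, and that of mt-Co3 from brain 0.40, with no call (adjusted p = 0.236, 0.258 and 0.244, edgeR). On total counts this became 0 higher and 2 lower, and 1 higher and 2 lower; mt-Co2 and mt-Nd4 turned to -0.19 and -0.18 against retina. The ATP synthase proton-channel subunit mt-Atp6 had 83.2, 94.2, 86.0 and 131 CPM in cornea macrophages, 46.4, 47.5, 44.8 and 45.4 CPM in retinal microglia, 38.3, 38.0, 45.4 and 49.5 CPM in brain microglia and 82.1, 68.3, 68.1 and 79.4 CPM in monocytes. Cornea lay above all other libraries, by 1.10 ± 0.15 from retina, 1.20 ± 0.15 from brain and 0.41 ± 0.15 from monocytes (adjusted p = 6.12e-06, 2.26e-06 and 0.0246, edgeR). Its neighbour mt-Atp8, whose exon overlaps it over 21.1% of its length, differed by 1.00, 1.19 and 0.66. The calls of both against monocytes were lost without cornea library 4 (0.23 and 0.40, adjusted p = 0.143 and 0.174, edgeR), and also without monocyte library 2 or 3, and for mt-Atp8 without monocyte library 4. On total counts the differences from monocytes were -0.27 for mt-Atp6, -0.01 for mt-Atp8 and -0.02 for mt-Nd2, and mitochondrial-encoded members split into 0 higher and 4 lower.

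Of the 13 mitochondrial-encoded genes, 6 were called in no comparison on the counts as deposited: mt-Nd1, mt-Nd3, mt-Nd4l, mt-Nd5, mt-Nd6 and mt-Cytb. With copy counts added, mt-Nd3 was higher than in monocytes in cornea (0.57, adjusted p = 0.0222, edgeR) and brain (0.52, adjusted p = 0.0365, edgeR). In that fit mt-Nd4l was higher in cornea than in retina (0.83, adjusted p = 0.0234, edgeR). Among the 6, mt-Nd6, the one gene of this set read from the opposite strand of mitochondrial DNA, differed by -0.43 ± 0.20 between cornea and retina (adjusted p = 0.065, edgeR). The cytochrome b gene mt-Cytb, the mitochondrial-encoded subunit of complex III, had 1703, 1555, 2911 and 3136 CPM in cornea, 1554, 1963, 2113 and 2086 CPM in retina, 1166, 1840, 1556 and 2227 CPM in brain, and 1445, 1246, 1368 and 2839 CPM in monocytes. All groups overlapped and no comparison was called. In 8 of 13 genes cornea libraries 3 and 4 both lay above libraries 1 and 2, which share a title number, against 13.8% of tested genes. Stromal markers summed to 1391, 1497, 2587 and 2236 CPM in cornea libraries 1 to 4, and epithelial markers to 1378, 370, 634 and 234 CPM; their part was not tested. The catalytic core mt-Co1 had 3484, 2881, 3632 and 10850 CPM in monocytes, and 7 of 13 genes were highest of the monocyte libraries in library 4, against 27.9% of tested genes. mt-Co1 was called lower in brain than in monocytes (-1.19 ± 0.45, adjusted p = 0.031, edgeR), with overlapping libraries. Without monocyte library 4 the difference was -0.55 (adjusted p = 0.243, edgeR). The call was also lost without brain library 1 (-0.97, adjusted p = 0.0943) or 3 (-1.07, adjusted p = 0.0862).

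Calls against monocytes changed when such libraries were left out. The call of mt-Co3 was lost in retina and brain without monocyte library 4 (-0.48 and -0.50, adjusted p = 0.105 and 0.0987, edgeR), and also without retinal library 1, or without brain library 1 or 3. That of mt-Nd2 in brain (0.49) was lost without any 1 of brain libraries 2 to 4 or monocyte libraries 1 to 3. Without monocyte library 4, 5 mitochondrial-encoded members were higher in cornea than in monocytes, and 1 was higher and 2 were lower in brain. Without cornea libraries 3 and 4, 1 was lower and none higher in cornea than in monocytes. Without monocyte libraries 1 and 2, none was called in cornea, and none was higher and 4 were lower in retina and in brain alike. In that fit 20.2% of tested genes were lower in retina and 20.7% in brain. Mitochondrial ribosomal RNAs, counted apart from the members, were higher in cornea than in both microglial populations (mt-Rnr2 by 2.21 and 2.46, mt-Rnr1 by 1.48 and 1.94).

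The ratio of mitochondrial- to nuclear-encoded subunits was formed within each library and complex, from mean CPM per kilobase, and needs no scaling between libraries. In complex V it was 2.59, 2.89, 2.96 and 4.63 in cornea, 1.90, 1.95, 1.51 and 2.17 in retina, 1.67, 1.57, 1.79 and 2.16 in brain and 1.47, 1.23, 1.36 and 1.56 in monocytes. Cornea libraries lay above all others, and brain above monocytes by a narrow margin. In complex I it was 11.2, 10.6, 20.0 and 19.2 in cornea, 11.0, 12.5, 8.68 and 12.6 in retina, 7.82, 12.0, 11.0 and 13.4 in brain, and 4.55, 4.52, 5.81 and 11.2 in monocytes. Monocyte libraries 1 to 3 lay below all others, and library 4 among them. In complex III, with mt-Cytb alone on the mitochondrial side, retina (44.0 to 54.1) lay above monocytes (15.4 to 40.2). In complex IV every pair of populations overlapped, from 7.04 to 18.8 in cornea to 6.57 to 38.9 in monocytes. Its mitochondrial mean mostly reflects mt-Co1, at 2190 CPM per kilobase averaged over the populations, against 60.4 for mt-Co2 and 125 for mt-Co3. Of the counts of the last 2 pairs, 74.6% and 48.3% stood on the copy. In the mean over all 4 complexes, mt-Co1 and mt-Cytb (1678) weigh most. Over the 4 complexes together the log2 ratio differed between retina and brain by 0.08, between cornea and retina by 0.03, between cornea and brain by 0.11, and from monocytes by 0.68 in cornea, 0.65 in retina and 0.57 in brain. In all of these 6 pairs the libraries overlapped, so complex V in cornea was the one place where the ratio separated a population from every other. Its mitochondrial side is mt-Atp6 and mt-Atp8 alone. The level of mt-Atp6 is uncertain, and that of mt-Atp8 may be, since an unannotated copy would be missed. For mt-Atp6, 65.8% of the pair's counts stood on the copy. With copy counts added, mt-Atp6 differed in cornea by 1.14 from retina, 1.24 from brain and 0.37 from monocytes. Each was called (adjusted p = 5.32e-06, 1.98e-06 and 0.0436, edgeR).

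**Figure D5:**
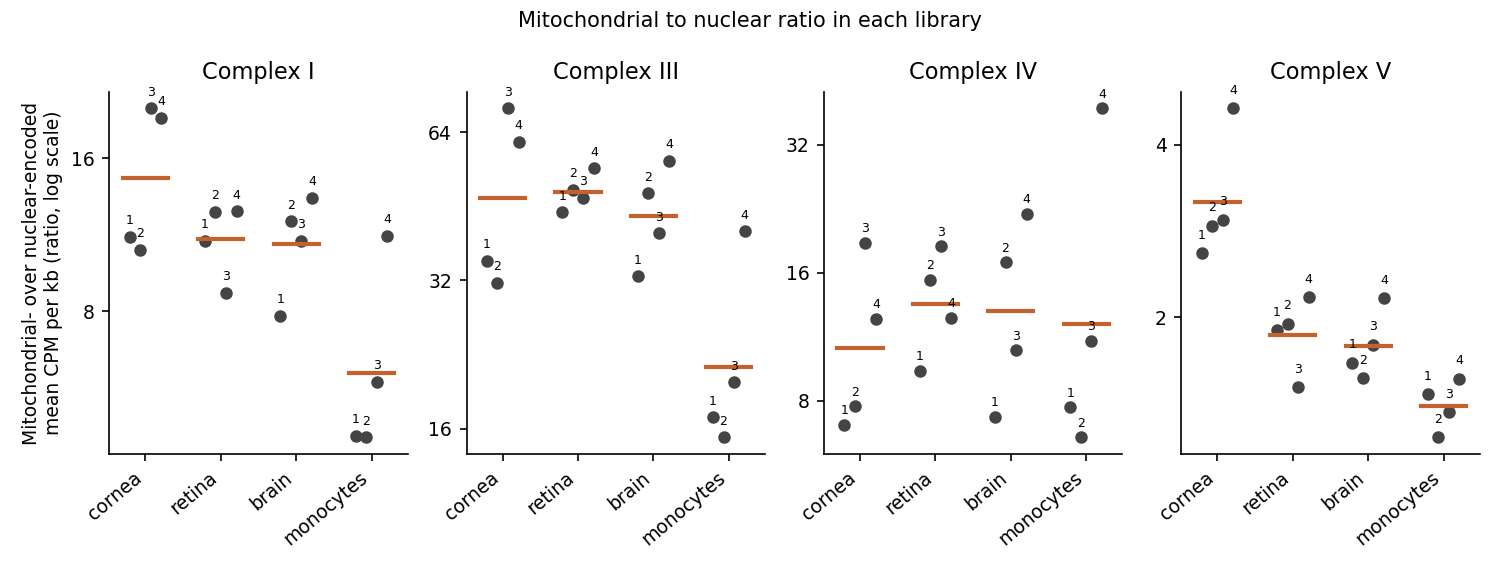
Ratio of mean CPM per kilobase of mitochondrial- to nuclear-encoded subunits (vertical log axis, a separate range for each panel) in complexes I, III, IV and V. Points are libraries, numbered within each population, and orange lines are geometric means. Cornea libraries lie above the 12 others in complex V (2.59 to 4.63), and monocyte library 4 lies far above monocyte libraries 1 to 3 in complexes I, III and IV.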

How the data were processed

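The authors deposited one table of raw read counts per gene for 16 libraries, with a gene length column (another unit, bases of the gene per the file headers, used to divide levels between genes). CASAVA 1.8.2, Subread, featureCounts, limma and GRCm38.p4 are named in the submitters' processing notes; on the strand setting of counting, nothing is given in the sources used here. Extraction text in the labels describes another tissue, so the library kit is uncertain.

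Counts were fitted with edgeR 4.0.16 in R 4.3.3 (TMM scaling, filterByExpr with a minimum count of 10, 1 quasi-likelihood fit of 16 libraries, Benjamini-Hochberg adjustment over 15754 genes). Each SE was obtained from the log2 fold change and its F statistic, as |log2 fold change|/√F. The fit was tested on simulated data. No 2 libraries of a population agreed within sampling noise (chi-square per degree of freedom 12.15 to 104.8). Ratios within a library used mean CPM per kilobase and left out Atp5s and Atp5sl. Copies were found as shared 50-base windows between annotated transcripts; promoters are RefSeq's. Alternatives were another scaling, no count filter, lane as a term, a block for number ranges shared in titles, fits of fewer libraries and DESeq2 1.42.0.

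Members, gene lists and tests were chosen with earlier results of these data known. Named genes are all mitochondrial-encoded and complex II members, paralogue sets, Atp5s and Atp5sl, and per comparison the 4 largest called, non-overlapping nuclear increases and decreases with a mean of at least 10 CPM. Other subunits, such as Atp5b, Ndufa6 and Atp5k, were chosen after their values were seen. A gene that this rule names is counted in the totals but not reported here.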

Additional observations from a re-analysis of the deposited data

Results flagged for a closer look

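In 200 groups of 4 libraries (one gene or ratio in one population), 17 had a library whose gap to the nearest other was above Dixon's 95% critical value of 0.829 of the group's range. Chance flags about 1 in 20 groups. Of these, 7 were in monocyte library 4: mt-Nd1 with 1220 CPM (the others 491 to 520), mt-Nd2 with 341 (221 to 233), mt-Co1 with 10900 (2880 to 3630), mt-Nd5 with 952 (462 to 530), mt-Cytb with 2840 (1250 to 1440), the mitochondrial to nuclear ratio of complex IV with 38.9 (6.56 to 11.1) and that of all complexes with 20.9 (5.87 to 8.28). In retinal library 3, Ndufs7 reached 74 CPM (46.5 to 48.8) and Atp5c1 189 (128 to 134). In retinal library 1, mt-Co3 was low with 53.5 CPM (76.4 to 80.8) and Sdha high with 287 (218 to 223).

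In cornea library 4, mt-Atp8 reached 17.7 CPM (9.87 to 10.8) and Uqcrq 92.8 (56.2 to 59.7), and in cornea library 1 Cox5a reached 66 (54.1 to 55.2). In brain library 1, mt-Nd4 was low with 328 CPM (463 to 481), and in brain library 3 Cox6a2 was high with 5.75 (2.54 to 2.83). In monocyte library 1, Cox6a2 stood at 0.136 CPM, with the others at 0.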

How the results depend on the processing

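Of 4526 alternative values, 4298 kept their direction and call, 123 lost and 90 gained the call, 6 moved and 9 reversed. Those that moved were 2 of 24 ratio values with the median over the subunits in place of the mean, and 4 without cornea libraries 3 and 4. All 9 reversals came with total counts in place of TMM: against monocytes in cornea, mt-Nd2 -0.0199, mt-Atp8 -0.0113 and mt-Atp6 -0.27; in cornea against retina, mt-Co2 -0.19, mt-Nd4 -0.18, Cox7b -0.0584, Cox8a -0.0212 and Atp5l -0.0539; in cornea against brain, Atp5g3 -0.0571. Total counts also gave 54 nuclear-encoded calls in cornea against retina (34 with TMM), and 2 mitochondrial-encoded ones (5 with TMM). Between retina and brain, the nuclear-encoded count of 1 became 2 with total counts or DESeq2's Wald test and 0 without a count filter or with lane as a term.

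Leaving out 1 library gave 0 to 1 nuclear-encoded calls between retina and brain, 1 to 5 mitochondrial-encoded calls in cornea against monocytes and 2 to 5 in brain against monocytes. Alternatives chosen after seeing the data gave mitochondrial-encoded counts in cornea against monocytes of 1 without cornea libraries 3 and 4, 5 without monocyte library 4 and 0 without monocyte libraries 1 and 2, and 3 in brain against monocytes without monocyte library 4. The log2 ratio difference between cornea and retina was -0.45 without cornea libraries 3 and 4. The cause of these shifts was not tested. Brain and monocyte libraries 3 and 4 share number ranges in their titles. The correlation over genes of their deviations was -0.00964 and 0.0327 for the same range and -0.00675 and -0.0271 for the crossed ones, so the ranges were not taken to pair them. With a replicate block for these ranges, also added after seeing the data, 59 nuclear-encoded members were called in brain against monocytes (60 without) and 5 mitochondrial-encoded ones (5 without), and no named call changed. Elsewhere no paired analysis was possible because replicate numbers follow accession order. Counts limit Cox6a2 in monocytes (3 in all) and mt-Nd4l (325 over 16 libraries).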

Other observations

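Cytosolic ribosomal protein genes, which are no part of the respiratory chain, were lower in microglia than in monocytes more often than tested genes in all. Of 96 tested, 62 (64.6%, against 27.4% of all tested genes) were lower and 7 higher in brain microglia (median -1.02), and 41 (42.7%, against 27.1%) lower and 9 higher in retinal microglia (median -0.41). In cornea macrophages 21 were lower (21.9%, below the 31.1% of all tested genes) and 7 higher (median -0.19). In cornea against brain microglia, 62 were higher (64.6%, against 33.8%) and 4 lower, and in retina against brain 14 were higher (14.6%, against 6.95%) and 1 lower. Of 29 genes that copy mitochondrial DNA, transcribe it or handle its RNA, 14 were lower (48.3%, against 35.1%) and 8 higher (27.6%, against 30.9%) in cornea than in retina. In retina against monocytes 4 were lower (13.8%, against 27.1%) and 9 higher (31%, against 32.2%).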
